A study of Mus musculus with 2 samples.

Results

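Transcripts of 40 cell cycle genes were followed in single myeloid cells taken from mouse brain after stroke. The genes were chosen by symbol and not by their values, and each matched 1 of the 31053 genes of the deposited tables. By role they comprised 12 genes of S phase, 24 genes of G2 and mitosis (G2/M) and 4 genes of G1 control and the checkpoint. The question was how much of this program was present in microglia, the resident macrophages of the brain, and how much in the monocytes and macrophages that enter it from blood.

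There was 1 group, ischemic brain of Foxp3Egfp mice 6 to 8 weeks old, with 2 libraries, called replicate 1 and replicate 2. These mice carry a green fluorescent reporter at the locus of Foxp3, a transcription factor of regulatory T cells. Cells were sorted as CD45+CD11b+CD3-F4/80+, a gate for myeloid cells, and their transcripts were counted as unique molecular identifiers (UMIs) with the Chromium 3' v3 kit. The design text calls the sorted cells infiltrated macrophages. There were no cells of an uninjured brain, and whether each library came from animals of its own is not stated. The p-values therefore measure how differences between classes of cells varied from library to library, a spread that may be technical. The labels also say that barcoded cDNA from stroke mice was pooled before it was sequenced.

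The cell cycle copies a cell's DNA in S phase and divides it in mitosis. Cyclin D starts the cycle in G1 by releasing E2F factors, which switch on S phase genes. The MuvB complex with B-Myb and FOXM1 then switches on the G2/M genes, through a promoter element called the CHR. Adult microglia are known to renew slowly by division and to divide more after injury, whereas monocytes are made by dividing precursors in bone marrow.

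Promoter windows are shown first because they separate the S phase from the G2/M genes independently of any count in these cells. RefSeq windows on GRCm38.p6, from 250 bases before a gene's start to 50 after it, were at hand for 34 of the 40 genes (37 windows). The letters TTTGAA of the CHR, read on both strands, stood in 17 of 22 G2/M windows, 1 of 12 S phase windows (Mcm2) and 0 of the 3 windows of Ccne1 and Cdkn1a, against 17.9% of all 32851 windows. An E2F motif, TTCCCGC or TTTGGCGC, stood in 7 of 12 S phase windows and in 0 of 22 G2/M windows, against 5.06% of all windows. The CCAAT box did not separate them, with 20 of 22 G2/M and 10 of 12 S phase windows against 37.4%. A match is a description of the letters and no evidence of a bound factor, and the other genes' lack of a match holds for this window only.

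The 4 windows below belong to genes that carry later results. Capitals mark matches to any of the 4 motifs on either strand, and each sequence runs 5′ to 3′ along the gene's own strand. Ccnb2 (chr9:70421505-70421804, minus strand) and Ube2c (chr2:164769679-164769978, plus strand) are G2/M genes with a CHR, whose first base lies 4 bases after the start in Ccnb2 (a second match lies upstream) and 29 before it in Ube2c. Pclaf (chr9:65890073-65890372, plus strand) and Mcm6 (chr1:128359656-128359955, minus strand) are S phase genes with 2 E2F matches each. Pclaf has the TTCCCGC form and Mcm6 the TTTGGCGC form.
Ccnb2: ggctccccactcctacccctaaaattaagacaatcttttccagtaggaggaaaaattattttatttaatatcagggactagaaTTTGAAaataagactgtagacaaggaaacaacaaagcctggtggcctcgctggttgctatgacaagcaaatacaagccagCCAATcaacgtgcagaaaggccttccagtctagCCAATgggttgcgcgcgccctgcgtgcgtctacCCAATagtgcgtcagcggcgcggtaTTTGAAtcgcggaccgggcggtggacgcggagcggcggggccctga
Ube2c: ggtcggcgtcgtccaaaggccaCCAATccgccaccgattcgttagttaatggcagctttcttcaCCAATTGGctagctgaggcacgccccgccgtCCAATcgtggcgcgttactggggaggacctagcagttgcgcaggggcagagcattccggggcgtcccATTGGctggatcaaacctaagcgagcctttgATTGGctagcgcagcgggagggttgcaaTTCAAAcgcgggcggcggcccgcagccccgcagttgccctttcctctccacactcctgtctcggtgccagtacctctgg
Pclaf: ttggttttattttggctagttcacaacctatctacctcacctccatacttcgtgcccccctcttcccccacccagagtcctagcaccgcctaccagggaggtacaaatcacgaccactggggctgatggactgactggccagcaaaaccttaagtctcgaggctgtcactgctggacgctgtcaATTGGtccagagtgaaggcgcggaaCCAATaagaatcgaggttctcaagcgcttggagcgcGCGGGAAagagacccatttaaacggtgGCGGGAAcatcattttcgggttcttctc
Mcm6: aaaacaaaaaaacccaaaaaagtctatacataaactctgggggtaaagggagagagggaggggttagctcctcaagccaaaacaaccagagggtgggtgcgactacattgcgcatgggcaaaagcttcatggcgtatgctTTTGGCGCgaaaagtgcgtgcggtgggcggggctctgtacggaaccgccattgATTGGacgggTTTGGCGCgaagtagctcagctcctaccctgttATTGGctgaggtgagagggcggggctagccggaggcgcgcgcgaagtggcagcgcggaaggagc

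The libraries held 101893367 and 62850768 UMIs, from which 15050 and 7910 barcodes were kept as cells, with medians of 5356 and 5891.5 UMIs. Of these, 31 barcodes occurred in both libraries (0.206% and 0.392% of the cells). A cell's lineage was read from the share of its lineage marker UMIs that belonged to 12 microglia markers rather than 17 markers of infiltrating monocytes and macrophages: at least 90% for microglia-like cells and at most 70% for infiltrating-like cells. This gave 7211 and 5579 microglia-like and 5494 and 1311 infiltrating-like cells, of which 711 and 160, and 411 and 68, lay within 5 points of their limit. These classes are ranges of a score. Summed microglia markers reached 13903 and 20243 CPM (UMIs scaled to a class total of 1000000) in microglia-like cells and 1965 and 2398 in infiltrating-like cells, and summed infiltrating markers 237 and 128 against 2897 and 6585 CPM. Infiltrating-like cells also held markers of border-associated macrophages (1603 and 1252 CPM against 138 and 56.6), so that group may be part of them, and its part in the results was not tested. Medians per cell of the markers of neutrophils, dendritic cells and T or NK cells were at or below 0.0114% of UMIs in both lineages. Summed neutrophil markers still reached 864 and 667 CPM in microglia-like cells, above the infiltrating markers there, and 328 and 516 CPM in infiltrating-like cells. Summed markers of dendritic cells and of T or NK cells stayed at or below 32.2 CPM. In bulk sums of this kind, more cycling cells and more RNA per cycling cell cannot be told apart.

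All 40 genes were detected in both libraries, from 409 and 157 UMIs in all cells for Ccne2 to 27528 and 19092 for Cdkn1a. Free RNA is the background of such data: barcodes with fewer than 100 UMIs, too few for a cell, held 4.91% and 4.40% of all UMIs. The 24 G2/M genes summed to 325.7 and 240.0 CPM in free RNA, which is close to their level in cells. In microglia-like cells they summed to 398 and 292 CPM and in infiltrating-like cells to 321 and 282 CPM. The 12 S phase genes summed to 240 and 196 CPM in free RNA, to 248 and 213 CPM in microglia-like cells and to 264 and 198 CPM in infiltrating-like cells. Cycling cells were therefore sought further on by co-detection of several of these genes in 1 cell.

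Infiltrating-like cells as a whole carried about as much of the program as microglia-like cells, and no gene of it passed the test. Of the 37 genes that passed the filter on low counts, 0 were called higher and 0 lower by edgeR's quasi-likelihood test on UMIs summed per library and class, at an adjusted p under 0.05. At an unadjusted p under 0.05 there were 3 (Cenpf, Ccnb2 and Ccnd1, all lower), and DESeq2 called 0. Over all 8879 genes tested, 28.3% were called, 12.9% higher and 15.4% lower. The median log2 difference was 0.01 over the 37 genes and −0.06 over all genes. It was 0.17 for the 12 S phase genes (range −0.51 to 0.52) and −0.03 for the 22 G2/M genes tested (range −0.62 to 0.36). Plk1, Bub1 and Ccne2 were left out by the filter, at 5.92 and 4.85, 4.01 and 2.75, and 4.39 and 2.85 CPM in microglia-like cells and 4.72 and 3.96, 5.02 and 3.20, and 4.79 and 1.10 CPM in infiltrating-like cells.

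The infiltrating-like sum was then taken apart. Infiltrating-like cells were divided into monocyte-like cells, with more UMIs of 5 monocyte markers such as Ccr2 and Ly6c2 (1205 and 818 cells), and macrophage-like cells, with more UMIs of 5 macrophage markers such as Ms4a7 and Arg1 (4066 and 436 cells). The monocyte-like comparisons were chosen after seeing the data. The G2/M genes summed to 232 and 173 CPM in macrophage-like cells, below the free RNA of their library in both, and to 747 and 307 CPM in monocyte-like cells. The S phase sums followed the same order, with 209 and 155 CPM in macrophage-like and 523 and 229 CPM in monocyte-like cells. Microglia-like cells lay between these classes for both sums in both libraries. The distance from microglia-like to monocyte-like cells was large in replicate 1 and small in replicate 2.

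**Figure D1:**
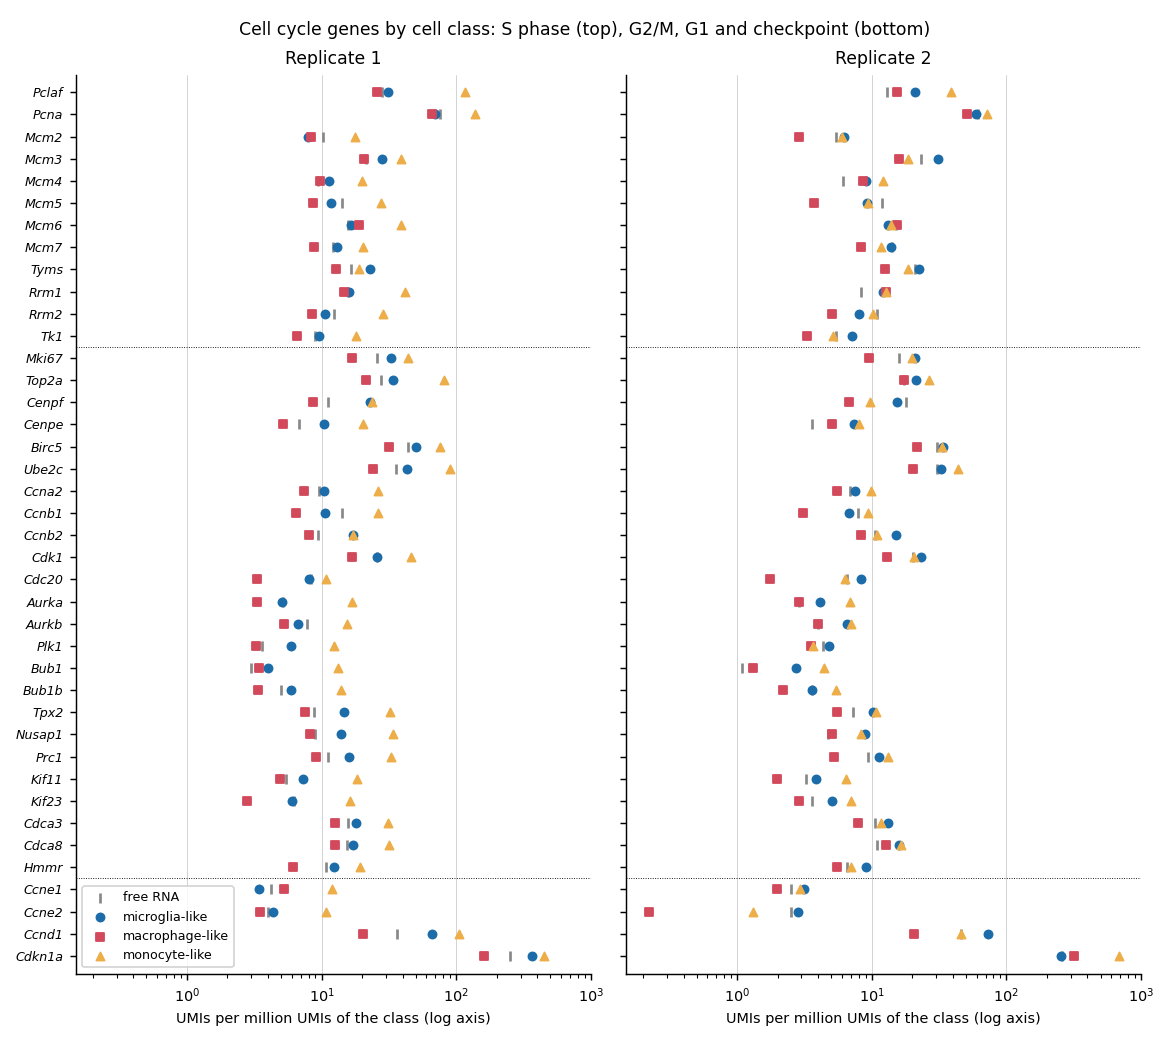
Level of each of the 40 genes in CPM (log axis) in microglia-like, macrophage-like and monocyte-like cells and in free RNA, 1 panel per library, 1 point per summed class. In replicate 1 the monocyte-like point is the highest of the 3 classes for every gene but Tyms and Ccnb2, while in replicate 2 it lies close to the microglia-like point for many of them.

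Between macrophage-like and microglia-like cells, 3 of the 24 G2/M genes were called lower and 0 higher. All 24 genes had a negative log2 difference in the fit (median −0.59, all 11139 genes −0.06), 22 of 24 in replicate 1 alone and 24 of 24 in replicate 2. These signs are not independent, since G2/M transcripts were concentrated in few cells, as given further on. Of the 40 genes, 4 were called lower and 0 higher, beside 14.5% of all genes called lower and 13.1% higher (27.6% in all), so the share of called members is no larger than that of genes in general. The 12 S phase genes had a median of −0.24, with 3 of 12 above 0, and 0 were called. In replicate 1 alone 5 of the 12 were negative (median 0.06), and in replicate 2 alone 10 of 12 (median −0.74).

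Cenpf, a protein of the kinetochore and nuclear matrix that builds up in G2, stood at 22.8 and 15.5 CPM in microglia-like and at 8.56 and 6.82 CPM in macrophage-like cells. The groups did not overlap, and Cenpf fell by 1.16 on the log2 scale (SE 0.30, n = 2 libraries per class, edgeR adjusted p = 0.0162). Cdc20, the activator of the anaphase-promoting complex, stood at 7.99 and 8.34 CPM against 3.31 and 1.76 CPM, and fell by 1.43 (SE 0.44, edgeR adjusted p = 0.0344). Ccnb2, cyclin B2, stood at 17.1 and 15.2 CPM against 8.12 and 8.36 CPM, and fell by 0.82 (SE 0.26, edgeR adjusted p = 0.0372). These G2/M genes were each lower in both libraries, yet all 3 calls were lost without the library block (edgeR adjusted p = 0.0972, 0.0597 and 0.0635), and that of Ccnb2 also with RLE size factors (edgeR adjusted p = 0.0559).

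Ccnd1, cyclin D1, which couples growth signals to entry into the cycle, was the fourth. It stood at 65.8 and 72.5 CPM in microglia-like cells and at 20.2 and 20.7 CPM in macrophage-like cells, with libraries of a class close together and classes far apart. The log2 difference was −1.62 (SE 0.40, edgeR adjusted p = 0.0128), and the call held under each of the 6 alternatives of this comparison. Monocyte-like cells gave 104.8 and 45.7 CPM, above the microglia-like level in replicate 1 and below it in replicate 2, with a log2 difference of 0.07 (SE 0.39, edgeR adjusted p = 0.909). Summed infiltrating-like cells held 35.0 and 36.2 CPM (log2 −0.87, SE 0.35, edgeR adjusted p = 0.0955).

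Mki67, the nuclear protein that coats mitotic chromosomes and the usual mark of dividing cells, stood at 33.0 and 20.9 CPM in microglia-like, 16.9 and 9.46 in macrophage-like and 44.03 and 19.99 in monocyte-like cells. Top2a, the topoisomerase that untangles DNA before it is divided, stood at 33.8 and 21.3, 21.2 and 17.4, and 80.5 and 26.5 CPM in the same order. Birc5, survivin of the chromosomal passenger complex, stood at 49.9 and 33.7, 31.6 and 21.6, and 75.6 and 33.5 CPM. In all 3 the macrophage-like value was the lowest of its library, and none passed the test against microglia-like cells in either class (edgeR adjusted p from 0.101 to 0.682). The mitotic kinases and their partners Aurkb, Bub1, Bub1b and Tpx2, the motors Kif11, Kif23 and Cenpe, and the spindle proteins Prc1, Nusap1 and Hmmr were likewise lowest in macrophage-like cells of both libraries and uncalled.

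Monocyte-like cells had 3 genes called higher than microglia-like cells and 0 lower, beside 14.7% and 14.4% of all genes (29.1% in all). Pclaf, the clamp partner of PCNA at forks, stood at 115 and 38.5 CPM against 30.9 and 20.8 CPM (log2 1.47, SE 0.41, edgeR adjusted p = 0.0220). Aurka, the kinase of the spindle poles, stood at 16.8 and 6.91 CPM against 5.10 and 4.11 CPM (log2 1.30, SE 0.38, edgeR adjusted p = 0.0250). Ccna2, cyclin A2, which acts from S phase into mitosis, stood at 26.2 and 9.85 CPM against 10.5 and 7.45 CPM (log2 0.93, SE 0.31, edgeR adjusted p = 0.0449). The groups did not overlap for Pclaf and Aurka and overlapped for Ccna2, and each difference was larger in replicate 1.

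Without the library block the calls of Pclaf and Ccna2 were lost (edgeR adjusted p = 0.0521 and 0.119), and without the cells of the highest Scrublet doublet scores that of Ccna2 (edgeR adjusted p = 0.0787). The median log2 difference of the 24 G2/M genes was 0.96 in replicate 1 alone and 0.18 in replicate 2 alone, and that of the 12 S phase genes 0.98 and 0.13. The gap between monocyte-like and microglia-like cells was thus mostly that of replicate 1.

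**Figure D2:**
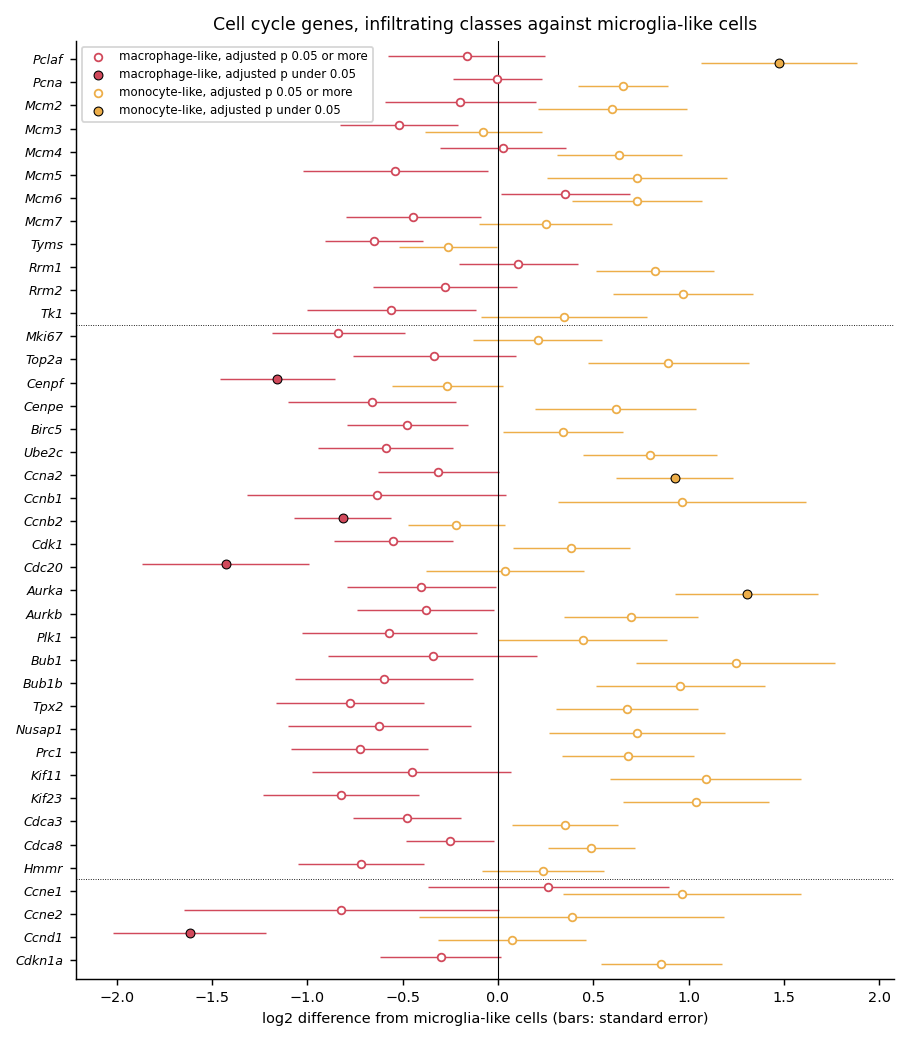
Log2 difference of each gene from microglia-like cells (edgeR fit, bars are standard errors) for macrophage-like and monocyte-like cells; filled points have an adjusted p under 0.05. All 24 G2/M genes of macrophage-like cells lie left of 0, and 22 of the 24 monocyte-like ones right of it.

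Set directly against each other, macrophage-like cells lay below monocyte-like cells for all 40 genes in the fit (median log2 difference −1.12, all genes −0.01), yet 0 of 40 were called by edgeR. At an unadjusted p under 0.05 there were 30 of 40, among them 23 of 24 G2/M genes, and DESeq2 called 6. Few genes of any kind were called here (1.15% of 11139, with 1.04% lower and 0.108% higher). Within each library alone 24 of 24 G2/M genes were lower (medians −1.41 and −0.94), and 12 and 11 of the 12 S phase genes. These 3 class comparisons share their sums, so their values are not independent of each other. The G2/M genes are not independent either, since their transcripts were concentrated in few cells, as given further on. In replicate 2 the G2/M-positive cells counted below were 7 macrophage-like and 16 monocyte-like cells. Counts of signs and of unadjusted p-values over these genes are therefore no separate support. Macrophage-like cells were also the deeper class, with medians of 7338.5 and 9401.5 UMIs per cell against 3898 and 7018, and depth was not tested as part of this difference.

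Among S phase genes, the helicase subunits Mcm2 to Mcm7, which open DNA at origins, were not called in any of these comparisons. Mcm3 stood at 28.2 and 30.9 CPM in microglia-like, 20.8 and 15.8 in macrophage-like and 39.0 and 18.5 in monocyte-like cells, and Mcm6 at 16.4 and 13.3, 19.0 and 15.4, and 38.8 and 13.8 CPM. Mcm6 was thereby above microglia-like cells in macrophage-like cells of both libraries, unlike Mcm3. Pcna, the sliding clamp, stood at 69.4 and 59.8, 65.5 and 50.8, and 137 and 71.9 CPM in the same order. Tyms, the thymidylate synthase, was the S phase gene with a value below microglia-like cells in both classes of both libraries, at 22.9 and 22.4 CPM against 12.8 and 12.5 in macrophage-like and 18.8 and 18.7 in monocyte-like cells (edgeR adjusted p = 0.0869 and 0.483). The reductase subunits Rrm1 and Rrm2 and the thymidine kinase Tk1 were also uncalled.

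Cdkn1a, the inhibitor p21 that halts the cycle after p53 activation, went opposite ways in the libraries for infiltrating-like cells as a whole. It stood at 364 and 256 CPM in microglia-like and at 213 and 527 CPM in infiltrating-like cells, so that the groups overlapped. The difference was −0.61 on the log2 scale in replicate 1 and 1.01 in replicate 2 (fit 0.27, SE 0.37, edgeR adjusted p = 0.641). Free RNA held 250 and 259 CPM of it. Within infiltrating-like cells it was higher in monocyte-like (451 and 681 CPM) than in macrophage-like cells (162 and 320 CPM) of each library. Monocyte-like values lay above microglia-like ones in both libraries, uncalled (log2 0.86, SE 0.32, edgeR adjusted p = 0.0675). Macrophage-like values lay below them in replicate 1 and above in replicate 2. Macrophage-like cells were 4066 of 5494 and 436 of 1311 infiltrating-like cells, and the part of this make-up was not tested. Ccne1, a cyclin that opens S phase, stood at 3.44 and 3.16 CPM in microglia-like and 6.28 and 2.44 CPM in infiltrating-like cells.

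Over the 10 sums of library and class, the genes whose log2(CPM + 1) followed Ccnd1 most closely were Cyp27a1 (Pearson r = 0.982), Gstk1 (0.969), Dnajb14 (0.969), Pkib (0.968) and Nmral1 (0.965). For Cdkn1a they were Spag9 (0.913), Egr2 (0.909), Clec4a3 (0.907), Prkab2 (0.906) and Cmip (0.901). These are descriptions over 5 classes of the same 2 libraries, picked from all 8879 genes.

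Cells with several genes of a phase were then counted. Each cell was thinned to 1000 UMIs so that deep cells had no better chance of detection, and called positive with 2 or more distinct genes of a phase. G2/M-positive cells made up 4.62% (exact binomial 95% interval 4.15 to 5.13%) and 2.71% (2.30 to 3.17%) of microglia-like cells, 333 and 151 cells. In infiltrating-like cells they were 3.82% (3.33 to 4.36%) and 1.83% (1.18 to 2.71%), 210 and 24 cells. With these markers microglia-like cells had the higher share in each library, but the libraries differed more than the lineages: 3.66 ± 1.35% against 2.83 ± 1.41% (SD, n = 2). That order turned with the marker list: with Lyz2, Lgals3 and Vim added to the infiltrating markers the shares were 3.19% and 2.02% in microglia-like and 4.67% and 2.43% in infiltrating-like cells. An exact permutation test of 2 against 2 libraries cannot give a p below 0.333, so no test was made.

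S phase-positive cells made up 2.59% and 2.06% of microglia-like and 3.17% and 1.37% of infiltrating-like cells, with infiltrating-like higher in replicate 1 and lower in replicate 2. With 3 or more genes required, microglia-like shares were 0.666% and 0.574% for S phase and 3.18% and 1.85% for G2/M. At the thinned depth Pcna was seen in 5.92% and 4.79% of microglia-like cells that were not G2/M-positive. Some S phase positives may therefore be cells outside S phase, and how many was not tested. Monocyte-like cells of replicate 1 had the highest S share of the infiltrating classes, 5.64% (4.41 to 7.10%), against 1.59% (0.849 to 2.70%) in replicate 2, and G2/M shares of 6.14% and 1.96%. Macrophage-like cells had 2.41% and 1.15% for S phase and 3.15% and 1.61% for G2/M. Intervals of monocyte-like and macrophage-like cells were apart in replicate 1 and overlapped in replicate 2, where 13 and 5 cells were S phase-positive. Intervals cover counting error only.

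**Figure D3:**
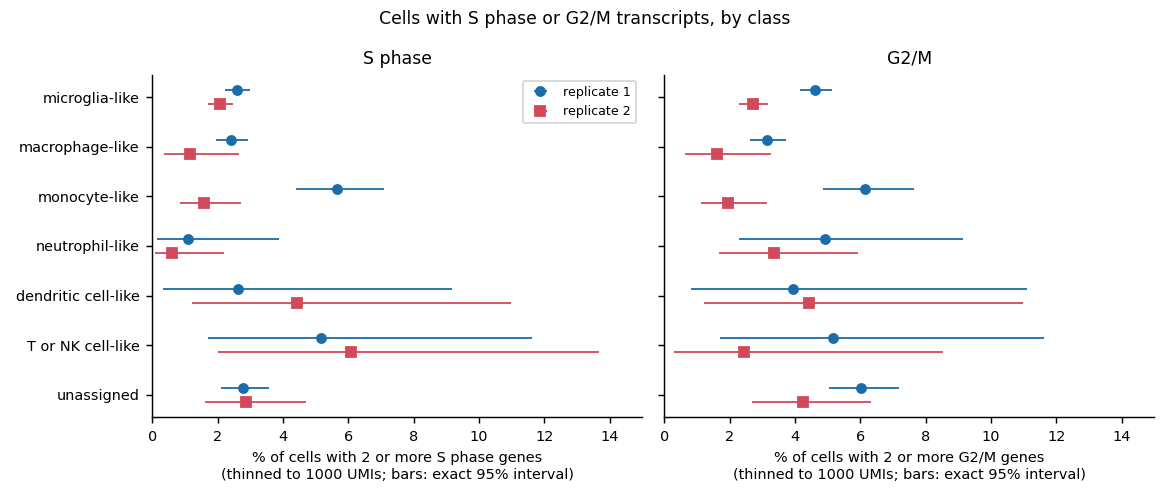
Percent of cells with 2 or more S phase (left) or G2/M (right) genes after thinning to 1000 UMIs, by class and library, with exact 95% binomial intervals. Replicate 1 lies above replicate 2 for microglia-like, macrophage-like and monocyte-like cells in both phases.

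Free RNA can give such positives too. Neutrophil-like cells, mature forms of which do not divide, gave S phase shares of 1.09% (0.133 to 3.89%) and 0.610% (0.0739 to 2.19%). These were 2 cells in each library. Median depths were 3147 and 2333 UMIs against 3969 and 5342 in microglia-like cells. The intervals of these shares overlapped those of microglia-like cells. For G2/M, 9 of 183 and 11 of 328 neutrophil-like cells were positive (4.92% and 3.35%). Those cells held Camp, a granule protein of neutrophil precursors, at 33547 and 38137 CPM against 4019 and 4895 CPM in the other neutrophil-like cells. Ngp stood at 18565 and 29048 against 3713 and 4567 CPM. Whether precursors were also among the S phase positives was not tested, so neither share gauges the positives that free RNA gives. Without thinning, G2/M shares were 12.2% and 8.89% in microglia-like, 10.05% and 6.94% in infiltrating-like and 10.4% and 5.18% in neutrophil-like cells. S phase shares were then 17.0% and 19.6%, 19.4% and 21.3%, and 11.5% and 8.23%.

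Most positive microglia-like cells showed 1 phase at the thinned depth. Thinning hides many transcripts: Pclaf was then seen in 18.9% and 20.5% of G2/M-positive microglia-like cells. Shares with both phases may therefore be too low. Of 451 and 229 microglia-like cells positive for either phase, 58.5% and 49.8% were positive for G2/M alone, 26.2% and 34.1% for S phase alone, and 15.3% (12.1 to 19.0%) and 16.2% (11.6 to 21.6%) for both. Of 304 and 36 infiltrating-like cells, 26.3% (21.5 to 31.6%) and 16.7% (6.37 to 32.8%) were positive for both. The share with both phases was higher in infiltrating-like cells in replicate 1, while in replicate 2 only 6 cells were.

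G2/M-positive cells were larger in RNA before thinning. Their medians were 7449 and 11444 UMIs in microglia-like cells, against 3842 and 5283.5 in the others, and 11210 and 17432 against 6463 and 7724 in infiltrating-like cells. Microglia-like cells positive for S phase alone had medians of 6040 and 5774 UMIs, against 3818 and 5277.5 in those positive for neither phase. Of the 24 positive infiltrating-like cells of replicate 2, 9 (37.5%) had a top Scrublet score, against 9.32% of the others, and their median microglia share was 48.5% against 16.2%. In replicate 1 these were 11.4% against 7.66%, and 42.3% against 40.9%. Whether doublets add to these cells was not tested. With all top-scoring cells removed the mean share was 2.47% in infiltrating-like and 3.65% in microglia-like cells.

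Transcripts of the 24 G2/M genes were concentrated in few cells. Each gene was measured in cells positive for at least 2 of the other 23, and its CPM there was divided by that in the remaining cells. This ratio ran from 13.5 to 48.0 in microglia-like cells of replicate 1 and from 19.1 to 88.2 in replicate 2, and from 18.5 to 58.1 and 15.2 to 216 in infiltrating-like cells. In the median gene these cells held 65.8% and 69.99% of the class's UMIs in microglia-like and 67.0% and 79.5% in infiltrating-like cells. The ratios of 1 class are not independent, since the genes choose nearly the same cells.

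Cenpf gave 223 against 7.03 CPM and 244 against 4.23 CPM in microglia-like cells, and 146 against 2.51 CPM and 229 against 1.06 CPM in infiltrating-like cells, the largest ratio of all (216) resting on 129 and 12 UMIs. Ube2c, the ubiquitin carrier of the anaphase-promoting complex, gave 420 against 14.2 and 516 against 9.47 CPM, and 438 against 10.3 and 839 against 4.41 CPM. At the low end Cdk1, the kinase that drives mitosis, gave 185 against 13.7 and 243 against 12.7 CPM in microglia-like cells. All 24 genes were thus higher in such cells of both lineages and libraries.

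S phase genes divided into parts by the same measure. Pclaf, Rrm2 and Tk1 stood 10.3-fold to 89.0-fold higher in cells with G2/M transcripts over both lineages and libraries, which overlaps the range of the G2/M genes. Tyms and Rrm1 stood 6.66-fold to 19.7-fold higher. Pcna and the 6 Mcm genes reached no more than 6.26-fold and no less than 1.72-fold. Mcm3 gave 45.9 against 26.8 and 58.4 against 29.5 CPM in microglia-like cells, a small step beside that of Pclaf at 229 against 14.7 and 263 against 8.73 CPM.

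Of the G1 genes, Ccnd1 stood at 56.4 against 66.6 and 65.9 against 72.9 CPM in G2/M-positive and other microglia-like cells, ratios of 0.847 and 0.905. In infiltrating-like cells it stood at 116 against 29.6 and 65.7 against 34.8 CPM, ratios of 3.93 and 1.89. Monocyte-like cells, which had more Ccnd1 than macrophage-like cells, were 74 of the 210 and 16 of the 24 positive infiltrating-like cells, against 1205 of all 5494 and 818 of all 1311. In replicate 2 the median microglia share was 48.5% in the positive infiltrating-like cells and 16.2% in the others. The part of this make-up in the Ccnd1 ratio, and the difference between the lineages, were not tested. Cdkn1a gave ratios of 1.05 and 1.31 in microglia-like cells, and 1.15 and 0.267 in infiltrating-like cells. Ccne1 and Ccne2 lay between 3.79 and 17.3 in both.

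**Figure D4:**
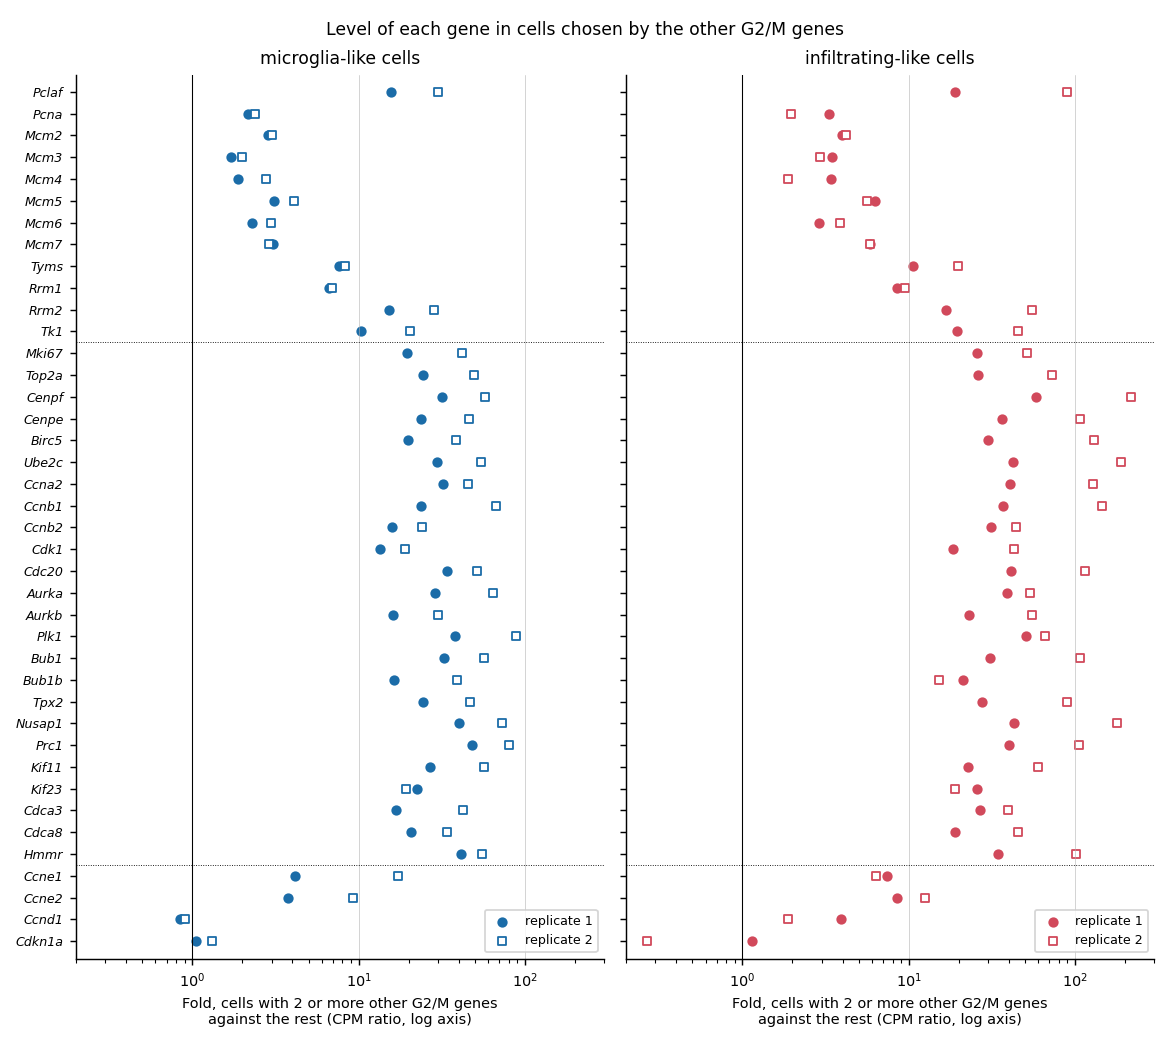
Ratio of each gene's CPM in cells with 2 or more other G2/M genes to its CPM in the remaining cells (log axis), by lineage, with filled points for replicate 1 and open points for replicate 2. G2/M genes lie at 13.5 or above, Pcna and the Mcm genes at 6.26 or below, and Ccnd1 left of 1 in microglia-like cells only.

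Genes outside the 40 were then tested in the same cells, from 4 lists of other cell cycle and growth genes. The cells were chosen by their G2/M genes, and the mitosis and replication lists hold genes of the same program. Higher calls in these lists were therefore likely from the choice of cells. Such counts describe the chosen cells and are no separate support. Between G2/M-positive and other microglia-like cells edgeR called 66 of 69 genes of mitosis and cytokinesis and 33 of 47 of DNA replication and origin licensing higher, and 0 lower, beside 3.64% of 12171 genes called higher and 1.31% lower (4.95% in all). Median log2 differences were 3.77 and 1.97, against −0.16 over all genes. The counts in infiltrating-like cells were 66 of 69 and 33 of 47 as well (3.71% of all genes higher and 1.01% lower, 4.72% in all), with medians of 4.19 and 2.08 against −0.02. The 2 contrasts share no cells. For their difference 0 of 12171 genes were called (786 at an unadjusted p under 0.05). All 109 and 113 listed genes called in either direction had the same sign in both libraries. That is no separate support, since the calls came from the same libraries and favour genes that agree between them.

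Among mitotic genes Aspm, a spindle pole protein, stood at 1.06 and 0.593 CPM in other microglia-like cells and at 60.0 and 59.4 CPM in positive ones (log2 6.07, SE 0.45, edgeR adjusted p = 0.000854). In infiltrating-like cells it stood at 0.616 and 0.0885 against 33.5 and 49.7 CPM (log2 6.20, SE 0.53, edgeR adjusted p = 0.00134). Kifc1 (5.64) and Pbk (5.31) followed in microglia-like cells, and the kinesin Kif20a (5.82) and the phosphatase Cdc25c (5.71) in infiltrating-like cells. Asf1b, a histone chaperone, rose by 3.73 and 3.83 in microglia-like and infiltrating-like cells. Exo1, an exonuclease of DNA repair, rose by 3.37 in microglia-like cells.

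Of the 50 genes of G1 control and cycle transcription, 9 were called higher in each lineage. E2f7, Foxm1 and E2f8, transcription factors of the cycle, led in both, at log2 4.31, 4.22 and 3.85 in microglia-like and 3.67, 4.62 and 3.47 in infiltrating-like cells. Foxm1 went from 1.68 and 0.809 CPM to 27.1 and 21.6 CPM in microglia-like cells and from 1.12 and 0.619 to 32.3 and 17.7 CPM in infiltrating-like cells. In infiltrating-like cells 4 of the list were called lower and in microglia-like cells 0, beside 1.01% and 1.31% of all genes. The test of the difference between the lineages called 0 of the 50 (7 at an unadjusted p under 0.05). Among the 4 Gadd45a, a growth arrest gene, went from 54.3 and 53.6 to 20.2 and 14.2 CPM (log2 −1.85, SE 0.24, edgeR adjusted p = 0.00647). The antiproliferative genes Btg1 and Btg2 fell by 1.59 and 1.54 on the log2 scale. Without the library block 1 gene of all 4 lists was called lower in place of 5.

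Of 17 genes of macrophage growth signals 16 were tested. Maf, a factor that restrains renewal of macrophages, was called lower in positive microglia-like cells, at 235 and 190 CPM against 359 and 398 CPM (log2 −0.96, SE 0.20, edgeR adjusted p = 0.0445). It was no longer called without the block, with RLE size factors or with 3 or more genes required per cell. Klf4 (log2 −1.29, adjusted p = 0.0887 by edgeR) and Tgfbr1 (−0.95, adjusted p = 0.0531 by edgeR) were not called. Il34 had 0 UMIs in the positive cells of both libraries, but only 0.0590 and 0.243 CPM in the others, too little to show a fall. In infiltrating-like cells Csf2rb2, a receptor chain for growth factors, was called lower, at 13.3 and 7.10 against 24.5 and 29.3 CPM (log2 −1.45, SE 0.29, edgeR adjusted p = 0.0370), and Csf1 (−1.64) and Klf4 (−1.60) were not called.

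**Figure D5:**
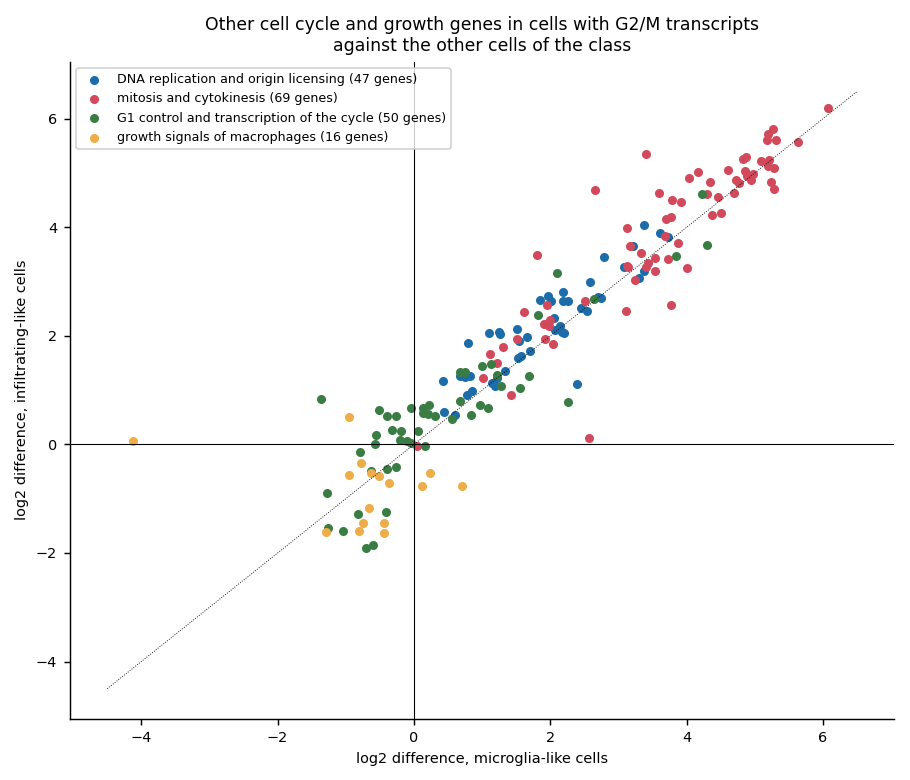
Log2 difference of other cell cycle and growth genes between G2/M-positive and other cells, in microglia-like (x) and infiltrating-like cells (y), 1 point per gene, coloured by list; the dotted line marks equal differences. Mitosis and replication genes lie to the upper right, up to 6.07 and 6.20 for Aspm, and most growth signal genes at or below 0.

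The same lists were set between the lineages without regard to phase. Of 33 replication genes tested 3 were called higher in infiltrating-like than in microglia-like cells. Dnmt1, which copies DNA methylation, stood at 47.8 and 32.1 against 21.7 and 15.2 CPM (log2 1.20). The others were the licensing factor Cdt1 (0.94) and Gmnn (0.81). Of 43 mitosis genes Ncapg2 (2.30) and Tubb4b (0.92) were higher and Ckap2l (−1.55), Ncaph (−1.42) and Pbk (−1.02) lower. Both shares of calls, 3 of 33 and 5 of 43, lay below the 28.3% of all genes. Of 40 G1 genes 4 were higher, led by Phlda3 (2.66), Ccnd2, cyclin D2 (2.11), and Gadd45a (1.33). In the same list 6 were lower, led by Btg2 (−2.15), Myc (−1.96) and Ccng2 (−1.60). Beside 12.9% of all genes called higher and 15.4% lower, these shares were no larger than those of genes in general.

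Cyclins D1 and D2 so lay on opposite sides, with Ccnd2 at 1.94 and 2.13 CPM in microglia-like and 5.20 and 13.2 CPM in infiltrating-like cells (SE 0.32, edgeR adjusted p = 0.00178), while the lower Ccnd1 was called in macrophage-like cells alone. Of 15 growth signal genes Csf1r, the receptor microglia need to survive, was lower in infiltrating-like cells (1300.2 and 1479 against 198 and 281 CPM, log2 −2.45), as were Klf2 (−2.63) and Csf1 (−2.36), and Spp1 was higher (3.01). In all, 5 of 15 were lower and 1 higher, beside 15.4% and 12.9% of all genes.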

How the data were processed

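Single-cell RNA of 2 libraries was analysed. The authors deposited raw UMI counts per gene and barcode, unfiltered, in matrices that name Cell Ranger per the file headers. Tools listed in the submitters' processing notes are Cell Ranger 4.0.0, Seurat 4 and STAR 2.5.1b, and builds are mm10, GRCm38 and GRCh38. The sources used here give neither the role of each nor the handling of reads shared by similar genes.

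Cells had at least 1000 UMIs, 500 genes and at most 10% mitochondrial UMIs. Lineage needed 5 marker UMIs. Neutrophil-like cells had 2% of UMIs from their markers, T or NK cell-like cells 3 distinct markers and dendritic cell-like cells 2. The members and lists were chosen with earlier results of these data known, and the scoring rule after marker totals were seen. Markers were left out of all tests, and the 40 genes out of the test between positive and other cells.

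For summed counts the test was edgeR 4.0.16 under R 4.3.3 (TMM, filterByExpr, quasi-likelihood test, Benjamini-Hochberg over all genes tested, threshold 0.05). All 5 classes with 50 cells or more per library entered 1 fit, with 4 residual degrees of freedom. The positive and other cells of both lineages entered another, with 3. Macrophage-like and monocyte-like cells were compared in a separate fit of 11139 genes, where they took the place of infiltrating-like cells. In each fit the spread comes from all its classes. The library was a block because compared sums came from the same libraries; deviations of the replicates correlated with r = 0.228 between lineages (8879 genes). CPM is UMIs scaled to 1000000 per class. Doublets were kept: Scrublet (scanpy 1.11.5) called 1426 and 0 cells, the latter a failed call, and removal of the 1886 and 583 top-scoring cells was an alternative, as was DESeq2 1.42.0. Named genes were all 40, the 3 called genes with the largest difference per list, direction and test, the 3 largest uncalled where fewer than 3 were called, and the 5 most like Ccnd1 and Cdkn1a. A few genes this rule names are not reported here. Scripts were tested on simulated counts. Other software was matplotlib 3.10.9, pandas 2.3.3, scipy 1.17.1 and numpy 2.4.6 under Python 3.11.15. GENCODE vM21 held 31011 of the 31053 gene IDs.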

Additional observations from a re-analysis of the deposited data

Results flagged for a closer look

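Cells that the marker rule put in no class, 1989 and 520, entered no comparison and held a larger share of G2/M-positive cells than either lineage: 6.03% (exact 95% interval 5.03 to 7.17%) in replicate 1 and 4.23% (2.67 to 6.34%) in replicate 2, 120 and 22 cells. Both intervals overlapped those of microglia-like cells. A count of 0 would allow up to 0.151% and 0.577%. Their median UMIs, 7265 and 9481, lay above those of microglia-like cells, and 921 and 181 of them had a top Scrublet score. The part of doublets or of lineage mixtures in this share was not tested.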

How the results depend on the processing

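In the comparison of infiltrating-like with microglia-like cells, 4 of the 40 genes were called higher with Lyz2, Lgals3 and Vim added to the infiltrating markers (Pclaf, Mcm6, Rrm2 and Cdca8). Called lower were 1 without the filter on low counts (Ccnd1), 3 with top Scrublet scores removed (Cenpf, Ccnb2 and Ccnd1), 1 with a stricter lineage cut (Cenpf) and 4 for macrophage-like cells alone; with DESeq2, RLE size factors, a stricter cell filter or no library block it was 0. Of 332 values of single genes under alternatives, 53 had the other sign than the main value. Macrophage-like against microglia-like, 4 lower calls became 1 without the replicate block (Ccnd1) and 11 with the stricter lineage cut. Monocyte-like against microglia-like, 3 higher calls became 5 with DESeq2, 5 with RLE size factors, 13 without the filter, 1 without the replicate block (Aurka), 5 with top Scrublet scores removed and 9 with the stricter lineage cut. Macrophage-like against monocyte-like, 0 lower calls became 6 with DESeq2, 20 without the filter, 2 with top Scrublet scores removed and 4 with the stricter cut. In G2/M-positive microglia-like cells, 1 listed gene was called lower, against 5 with DESeq2, 11 without the filter, and 0 without the replicate block, with 3 or more genes per cell or with RLE size factors. In infiltrating-like cells 5 became 12 with DESeq2, 13 without the filter and 1 without the replicate block. The 108 higher calls in each lineage ranged from 92 to 122. The cause of these shifts was not tested. Mean G2/M shares rose from 3.66% to 6.53% (thinned to 2000 UMIs) and 10.6% (no thinning) in microglia-like and from 2.83% to 4.28% and 8.49% in infiltrating-like cells. Mean S phase shares rose from 2.33% to 5.84% and 18.3%, and from 2.27% to 4.85% and 20.3%. With 3 or more genes per cell they were 0.620% and 0.844%, and 1.74% in microglia-like cells with the added markers. Those markers also turned the order of the mean G2/M shares, to 2.60% in microglia-like and 3.55% in infiltrating-like cells. With a library left out, G2/M shares ranged from 2.71% to 4.62% and from 1.83% to 3.82%, and S phase shares from 2.06% to 2.59% and from 1.37% to 3.17%. A fit without 1 library has no residual degrees of freedom, so gene values without a library carry no test, and the counts in G2/M-positive cells were not run that way. Depth limits the rarer classes: macrophage-like cells of replicate 2 held 7 G2/M-positive cells and 1 UMI of Ccne2.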
